A study of Mus musculus with 8 samples.

Results

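The genes described here are 34 mouse genes of the piRNA pathway and of germ granules, chosen by symbol as PIWI, Tudor, piRNA processing and chromatoid body genes. A symbol or synonym was found for 33 of them among the 24988 genes measured, and Nxf5 had no matching identifier. RNA of adult mouse testis was sequenced in 4 libraries labelled Kpna2 knockout (genotype Kpna2-/-) and 4 libraries labelled wild type (WT). The labels give no strain, exact age, allele design or treatment, and leave unsaid whether replicates are separate animals. P-values therefore measure the spread between these libraries only, which may be technical. Kpna2 encodes an importin alpha, an adaptor for the import of proteins into the nucleus, and the study concerned male infertility and the nuclear import of testis transcription factors.

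PIWI-interacting RNAs (piRNAs) are short RNAs of the germ line that guide PIWI proteins to transposon and other transcripts. Precursor transcripts are cut and trimmed at the surface of mitochondria, and many of the proteins involved gather in granules, the intermitochondrial cement of spermatocytes and the chromatoid body of round spermatids. Tudor proteins bind methylated arginines on PIWI proteins and so hold these granules together. In the fetal testis a nuclear branch of the pathway directs DNA methylation of transposons. In the adult testis most piRNAs are those of pachytene spermatocytes and round spermatids.

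The libraries held 31133443 to 37797812 reads assigned to genes. Kpna2 itself was higher in the libraries labelled knockout, at 15.3, 20.2, 19.4 and 21.7 CPM (read counts scaled to a common library size), against 13.97, 15.1, 14.04 and 12.4 CPM in wild type. The groups did not overlap (limma adjusted p = 0.0079; exact two-sided permutation p = 0.029, the smallest that 70 assignments allow). The target gene thus goes against the label, and a gene-level value does not show which exons the reads covered. Defining markers of the adult testis were present in both groups, with Prm1, a sperm protamine, at a mean of 4501 CPM in the libraries labelled knockout and 4920 CPM in wild type. Sycp3 of the synaptonemal complex stood at 74.7 CPM in the libraries labelled knockout and 77.2 CPM in wild type, and Star of Leydig cells at 47.4 CPM in the libraries labelled knockout and 116 CPM in wild type. Leydig cell markers went both ways: by limma 2 of 10 were called higher and 4 lower, with Star among the latter. Over all genes tested the shares were 8.62% higher and 8.32% lower.

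Of the 33 measured members, 3 rose and 2 fell in the libraries labelled knockout, and 28 were not called. Tdrd12, Tdrd3 and Morc1 rose, and Dnmt3l and Ddx39a fell, by 16.4% to 38.7% of the wild-type mean. The call is a limma test on log2(CPM + 0.5) with Benjamini-Hochberg adjustment over 22027 genes and a threshold of 0.05. By the same rule 16.9% of all genes tested were called, 8.62% higher and 8.32% lower, so the 15.2% called among the members is near the background. The members had a median log2 fold change of -0.0031, beside -0.01 over all genes tested. Summed over the members, the level was 6463 ± 137 CPM in the libraries labelled knockout and 6454 ± 61.2 CPM in wild type (SD, n = 4 each). All 33 passed the filter on low values, a mean of at least 0.5 CPM over the 8 libraries.

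**Figure D1:**
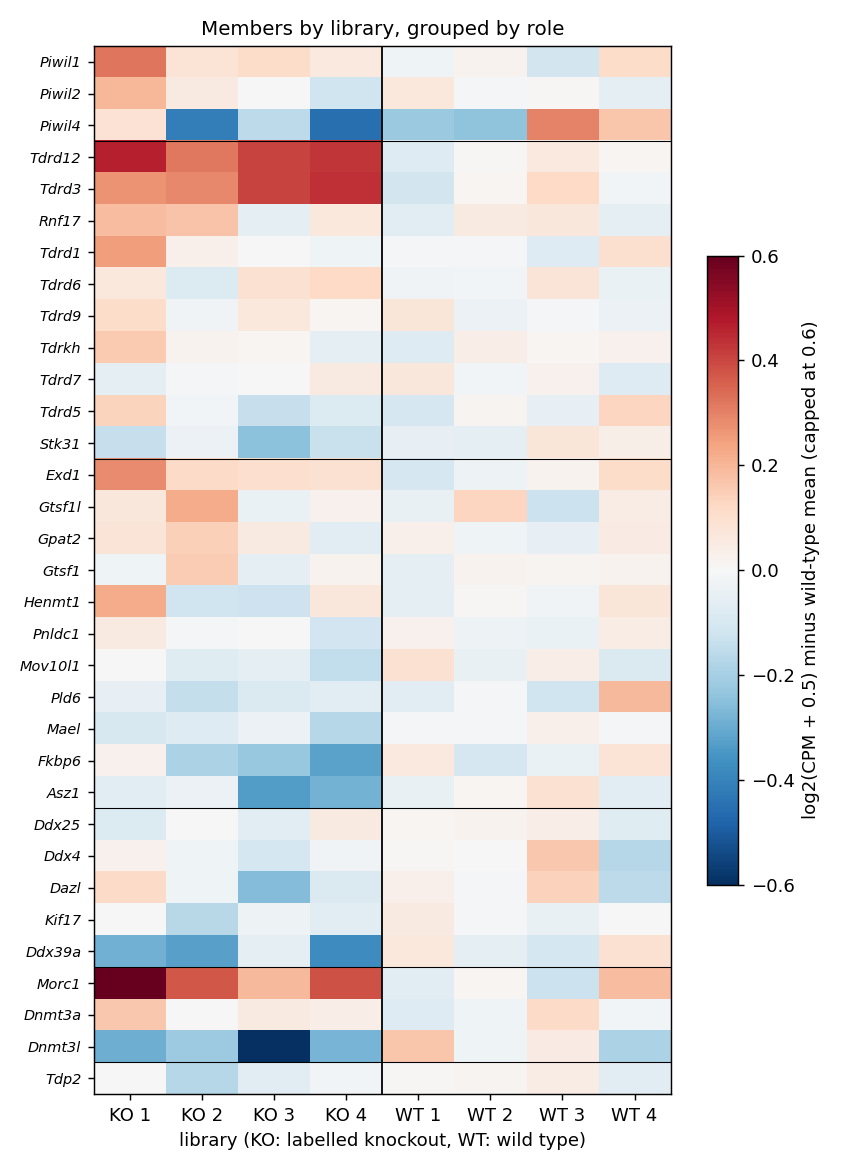
Level of each measured member in every library, as log2(CPM + 0.5) minus the mean of the 4 wild-type libraries, with the colour scale capped at 0.6 in both directions; rows are grouped by role, the 4 libraries labelled knockout (KO) stand left of the 4 wild-type libraries (WT). Tdrd12 and Tdrd3 are higher in all 4 libraries labelled knockout, and most other rows are pale.

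The sequences just upstream of 3 Tudor genes are shown because the strongest calls among the members fell on Tdrd12 and Tdrd3, while Tdrd1 was not called. Each is the 250 bases before the most upstream RefSeq start, in GRCm38.p6, read 5′ to 3′ on the gene's strand, with CpG dinucleotides in capitals. The windows are chr7:35537745-35537994 on the minus strand for Tdrd12, chr14:87416333-87416582 on the plus strand for Tdrd3 and chr19:56825959-56826208 on the plus strand for Tdrd1.
Tdrd12: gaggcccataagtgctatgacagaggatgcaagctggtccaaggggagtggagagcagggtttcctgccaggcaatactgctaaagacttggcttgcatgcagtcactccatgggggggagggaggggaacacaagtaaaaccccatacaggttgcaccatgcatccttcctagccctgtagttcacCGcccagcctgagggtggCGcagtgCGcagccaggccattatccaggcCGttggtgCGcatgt
Tdrd3: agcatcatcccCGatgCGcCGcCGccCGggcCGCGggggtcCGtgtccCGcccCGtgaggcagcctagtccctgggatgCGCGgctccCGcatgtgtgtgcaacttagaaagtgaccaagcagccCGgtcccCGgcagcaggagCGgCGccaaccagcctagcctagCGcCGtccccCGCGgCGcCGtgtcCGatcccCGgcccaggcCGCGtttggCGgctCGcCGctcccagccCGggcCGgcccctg
Tdrd1: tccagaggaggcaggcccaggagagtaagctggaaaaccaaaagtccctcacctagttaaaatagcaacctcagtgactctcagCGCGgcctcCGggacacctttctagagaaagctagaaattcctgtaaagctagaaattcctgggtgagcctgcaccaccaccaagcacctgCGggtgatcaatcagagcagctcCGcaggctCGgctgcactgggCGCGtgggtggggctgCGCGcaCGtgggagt
The Tdrd12 window held 5 CpG dinucleotides, that of Tdrd3 held 32 and that of Tdrd1 held 11. RefSeq promoter windows were found for 26 of the 33 members. Their median was 17.5 CpG dinucleotides, a GC content of 62.6% and a ratio of observed to expected CpG of 0.749, beside 6, 52.0% and 0.379 over the windows of 27025 genes. Tdrd12 and Tdrd3 lay on opposite sides of the members' median. A MYB recognition core (TAACNG, searched on both strands, with overlaps allowed) was in the windows of 5 of the 26 members (19.2%) and of 19.8% of all genes. It was in the windows of Tdrd5, Tdrd7, Tdrkh, Mov10l1 and Piwil1, none of which was called, and not in the 3 windows printed. The called members Morc1 and Ddx39a had no window, and all 250 bases of the Tdrd5 window lie in annotated exons. Bases just after the start used for Tdrd3 were found in none of its GENCODE transcripts, while those for Tdrd12 and Tdrd1 were found.

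Levels per length differed widely between members. Per kilobase of annotated exons, Mael, which is needed for transposon silencing and piRNA production, was highest at 590.6 CPM per kilobase in the libraries labelled knockout and 630.3 in wild type. Gtsf1l and Gtsf1, small zinc finger proteins of which Gtsf1 assists cleavage by PIWI proteins, followed at 377 and 199 CPM per kilobase in the libraries labelled knockout, against 359 and 196 in wild type. Next came the RNA helicase gene Ddx4, a germ cell marker known as mouse vasa, at 166 CPM per kilobase in the libraries labelled knockout and 170.2 in wild type. Tdrd6, a Tudor protein of the chromatoid body, had 122 CPM per kilobase in the libraries labelled knockout and 118 in wild type, and Piwil1 121 in the libraries labelled knockout and 109 in wild type. The lowest were Morc1, at 1.14 CPM per kilobase in the libraries labelled knockout and 0.822 in wild type, and Piwil4, at 0.105 in the libraries labelled knockout and 0.141 in wild type. The order was nearly the same in both groups: 22 of 33 members held the same rank, and none moved by more than 2 places.

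**Figure D2:**
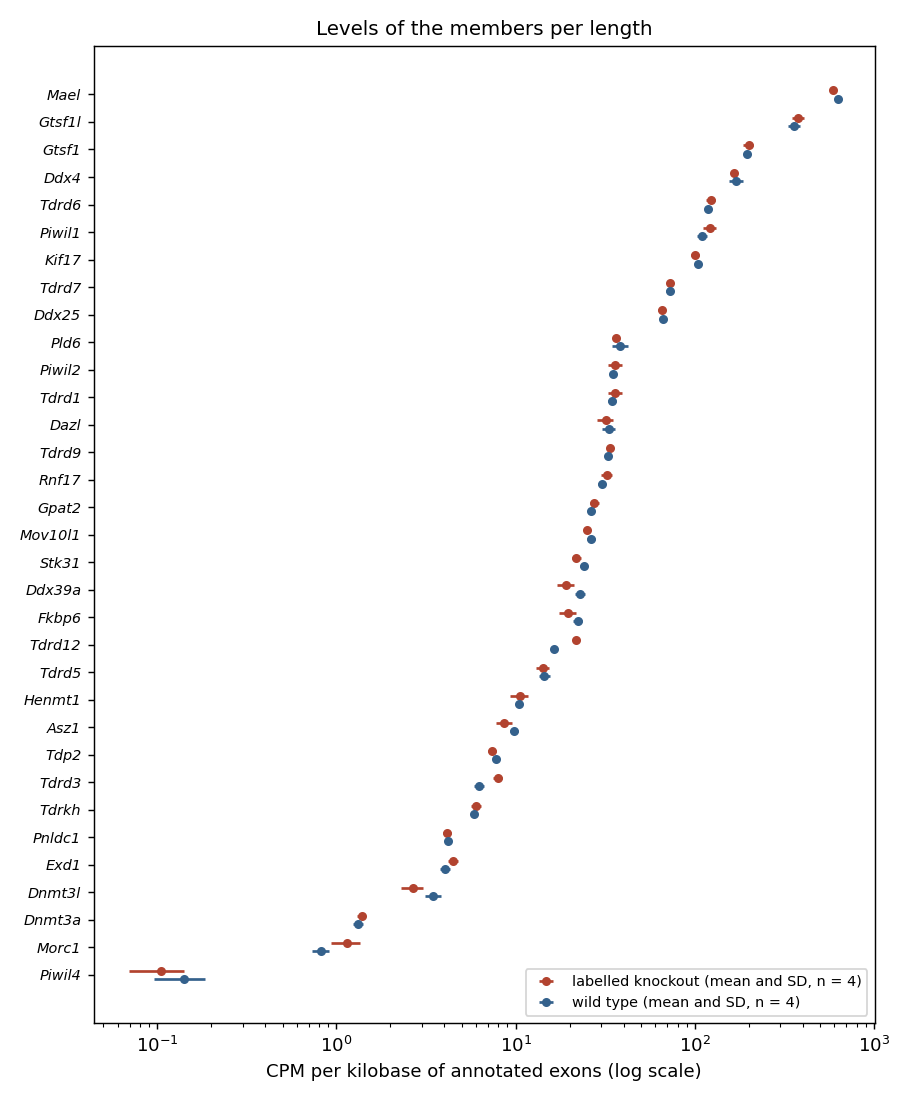
Mean level of each member per kilobase of annotated exons on a log scale, with SD over 4 libraries, for the libraries labelled knockout (red) and wild type (blue). The members run from 0.105 CPM per kilobase (Piwil4) to 590.6 (Mael) in the libraries labelled knockout and from 0.141 to 630.3 in wild type, and the 2 groups lie close together in most rows.

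The PIWI genes encode the proteins that carry piRNAs, and none of the 3 was called. Piwil1 (MIWI), which binds the pachytene piRNAs, had 594, 504, 513 and 496 CPM in the libraries labelled knockout, against 468, 483, 441 and 514 CPM in wild type. Replicate 1 of the libraries labelled knockout was the highest of all, and the other 3 lay within the wild-type range. Its mean was 10.6% higher (log2 fold change 0.14, 95% interval 0.0072 to 0.28, limma adjusted p = 0.14).

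Piwil2 (MILI), which acts from prospermatogonia to round spermatids, had 212, 192, 185 and 169.8 CPM in the libraries labelled knockout, against 193, 183, 186 and 178 CPM in wild type. The groups overlapped, with the libraries labelled knockout holding both the highest and the lowest value (log2 fold change 0.03, 95% interval -0.10 to 0.17). Piwil4 (MIWI2), the nuclear PIWI protein of fetal germ cells, was near the limit of detection with 14 to 34 reads per library. It had 0.817, 0.429, 0.613 and 0.407 CPM in the libraries labelled knockout, against 0.564, 0.549, 1.03 and 0.891 CPM in wild type. Its interval of -0.61 to 0.14 on the log2 scale was the widest among the members not called, and it alone of these 28 had an interval that reached beyond a 1.5-fold change. Its log2 fold change depended on the scale, at -0.23 with 0.5 CPM added, -0.36 with 0.1 CPM, -0.10 with 2 CPM and -0.42 by edgeR or DESeq2, and it was not called with any of them.

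Tudor genes gave 2 rises and no fall among 10, or 20% called, near the 16.9% of all genes tested. Tdrd12, a helicase-like Tudor protein needed for the piRNAs loaded on Piwil4, had 98.4, 88.5, 94.2 and 95.8 CPM in the libraries labelled knockout, against 67.3, 71.4, 73.9 and 71.8 CPM in wild type. Every library labelled knockout was above every wild-type library. The mean was 94.2 ± 4.18 CPM in the libraries labelled knockout and 71.1 ± 2.75 CPM in wild type (SD, n = 4 each), 32.5% higher, with a log2 fold change of 0.40 ± 0.05 (SE) and a limma adjusted p of 0.00011. In non-overlap the members were again close to the background: the groups were fully separated for 3 members upward and 2 downward, where 10.1% and 10.7% of all genes tested were.

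Tdrd12 (ENSMUSG00000030491) lies on chromosome 7, 35469098 to 35537745 on the minus strand in GRCm38. Of 21 other tested genes within 500 kb, 4 rose and 1 fell, where 8.62% and 8.32% of all genes tested did. Whether called genes cluster here was not tested. Gm18558, which lies inside Tdrd12, had 1.16 CPM in the libraries labelled knockout and 0.888 CPM in wild type and was not called. The closest beyond its ends were Nudt19, 9.44 kb away, which fell to 4.04 ± 1.02 CPM in the libraries labelled knockout, against 6.92 ± 0.635 CPM in wild type, and Cep89, 30.4 kb away, which rose to 159.7 ± 3.38 CPM in the libraries labelled knockout, against 141 ± 5.48 CPM in wild type. Exd1, whose protein binds Tdrd12, had 29.75, 26.4, 26.1 and 26.0 CPM in the libraries labelled knockout, against 22.6, 23.8, 24.7 and 26.3 CPM in wild type. One wild-type library lay among the libraries labelled knockout, and Exd1 was not called (log2 fold change 0.15, limma adjusted p = 0.16).

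Tdrd3 (ENSMUSG00000022019; chromosome 14, 87416639 to 87545504 in GRCm38) encodes a Tudor protein that reads methylated arginines and works with topoisomerase 3 beta in many tissues, not in germ granules alone. It had 45.7, 46.2, 50.2 and 51.4 CPM in the libraries labelled knockout, against 34.95, 38.1, 41.05 and 37.4 CPM in wild type. The groups did not overlap. The mean was 48.4 ± 2.82 CPM in the libraries labelled knockout and 37.9 ± 2.51 CPM in wild type (SD, n = 4 each), 27.8% higher, with a log2 fold change of 0.35 ± 0.06 (SE) and a limma adjusted p of 0.0017. Diaph3, the formin gene 275 kb away, was also higher (31.4 ± 3.47 CPM in the libraries labelled knockout and 24.7 ± 1.02 CPM in wild type, limma adjusted p = 0.0092), and the other 2 tested genes within 500 kb were not called. Of the other called members, Dnmt3l had 24 tested neighbours within 500 kb and Morc1 had 8, and limma and edgeR called none of them. Ddx39a had 33, of which 2 rose and 4 fell by limma, beside 16.9% called over all genes tested. An unadjusted limma p under 0.05 was reached by 5 neighbours of Dnmt3l and 2 of Morc1, and DESeq2 called 1 neighbour of Dnmt3l and 0 of Morc1.

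**Figure D3:**
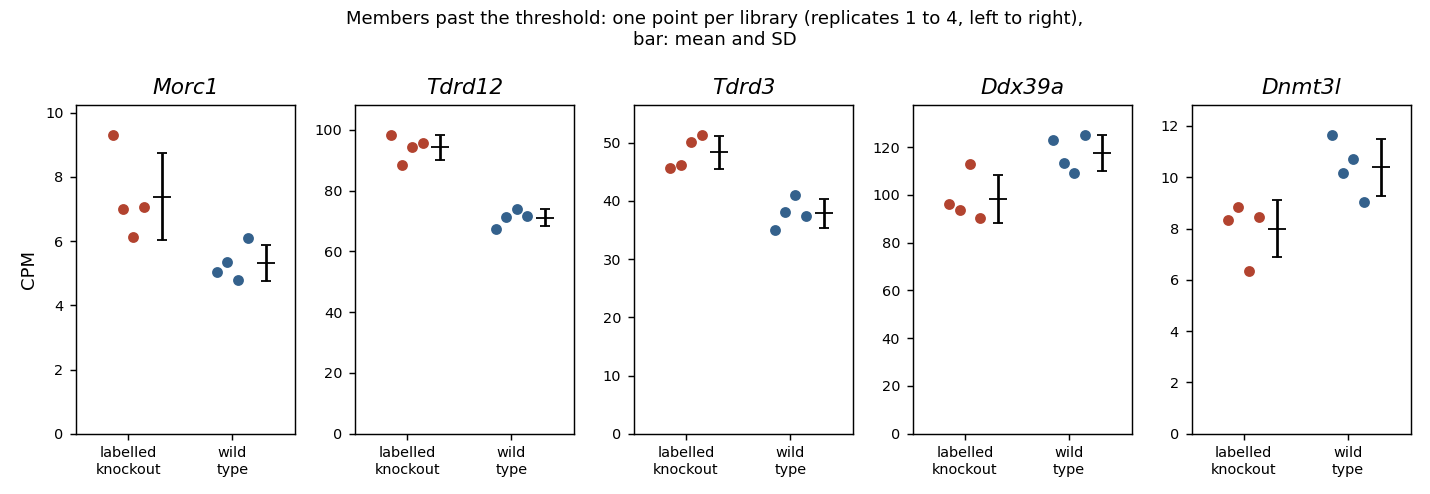
CPM of the 5 called members, 1 point per library with the libraries labelled knockout (red) left of wild type (blue), replicates 1 to 4 from left to right, and bars for the mean and SD of 4; every axis starts at 0. For Morc1, Tdrd12 and Tdrd3 all red points lie above all blue points, for Dnmt3l all lie below, and for Ddx39a the groups overlap.

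The other 8 Tudor genes were not called. Tdrd6 had 872, 787, 889 and 907 CPM in the libraries labelled knockout, against 821, 825, 878 and 811 CPM in wild type, with the lowest and the highest value both in the libraries labelled knockout. Tdrd7, another chromatoid body protein, differed least of all members, with a log2 fold change of -0.0031 (95% interval -0.10 to 0.10). Tdrd1, a scaffold that binds Piwil2, had 222, 190.5, 186 and 184 CPM in the libraries labelled knockout, against 186, 185, 177 and 199.5 CPM in wild type, with replicate 1 of the libraries labelled knockout above the rest. Rnf17, Tdrd9, Tdrkh and Tdrd5 had log2 fold changes between -0.03 and 0.09. Stk31, a Tudor protein with a kinase domain, had 70.6, 75.9, 65.4 and 70.8 CPM in the libraries labelled knockout, against 75.1, 74.6, 81.7 and 79.7 CPM in wild type. All but 1 of its libraries labelled knockout lay below the wild-type range (log2 fold change -0.14, unadjusted p = 0.029, limma adjusted p = 0.11). Exons of Tdrkh, which brings the trimming enzyme to mitochondria, share 36.7% of their bases with Oaz3 on the opposite strand, and Oaz3 stood at 1198 CPM in the libraries labelled knockout and 1270 CPM in wild type. The labels do not say whether reads were counted by strand, so the level of Tdrkh is uncertain.

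No gene of piRNA processing was called, of 11 tested, beside 16.9% of all genes tested. With so few genes this is no result about the role. Mael had 1023, 1034, 1067 and 969.5 CPM in the libraries labelled knockout, against 1086, 1088, 1114 and 1082 CPM in wild type. All 4 libraries labelled knockout lay below all 4 of wild type, by a small margin: the log2 fold change was -0.09 (95% interval -0.19 to 0.0023) and the limma adjusted p 0.18. Fkbp6, a co-chaperone used in piRNA loading, had 39.5, 34.0, 33.1 and 30.9 CPM in the libraries labelled knockout, against 40.5, 36.1, 37.8 and 41.04 CPM in wild type, with replicate 1 of the libraries labelled knockout apart from the other 3. It was not called (log2 fold change -0.18, limma adjusted p = 0.13), but passed when that replicate was left out (log2 fold change -0.25, limma adjusted p = 0.022).

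Asz1, a scaffold on mitochondria, had 26.5, 27.0, 21.85 and 22.6 CPM in the libraries labelled knockout, against 26.8, 27.9, 29.5 and 26.5 CPM in wild type. Replicates 3 and 4 of the libraries labelled knockout were low and the other 2 lay within or near the wild-type range (log2 fold change -0.18, unadjusted p = 0.036, limma adjusted p = 0.13). Gtsf1 had 268, 303, 262 and 276 CPM in the libraries labelled knockout, against 261, 276, 276 and 276 CPM in wild type, and the groups overlapped. Its relative Gtsf1l had 309.5 ± 24.5 CPM in the libraries labelled knockout and 295 ± 22.7 CPM in wild type (SD, n = 4 each). The precursor helicase Mov10l1 stood at 105 ± 4.29 CPM in the libraries labelled knockout and 110.1 ± 6.17 CPM in wild type. Pld6, the mitochondrial nuclease, stood at 63.4 ± 1.86 CPM in the libraries labelled knockout and 67.5 ± 6.61 CPM in wild type. Pnldc1, the trimming exonuclease, had 11.1 ± 0.560 CPM in the libraries labelled knockout and 11.2 ± 0.326 CPM in wild type. Henmt1, which methylates the finished 3′ ends, had 28.2 ± 3.35 CPM in the libraries labelled knockout and 27.8 ± 1.08 CPM in wild type. The intervals of these 4 enzymes all held 0, with bounds between -0.22 and 0.18 on the log2 scale. Gpat2, a mitochondrial acyltransferase of the same machinery, stood at 72.2 ± 4.25 CPM in the libraries labelled knockout and 69.5 ± 2.21 CPM in wild type.

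Of 5 measured genes of RNA helicases, RNA binding and transport, 1 fell, or 20% called, beside 16.9% of all genes tested. All 5 had a negative log2 fold change. The sign of Ddx4 turned when replicate 3 of wild type was left out (0.02), and that of Dazl when replicate 3 of the libraries labelled knockout was (0.0015). Ddx39a (listed under its older name Ddx39; chromosome 8, 83715177 to 83726892 in GRCm38), a helicase of messenger RNA export, had 96.1, 93.6, 113 and 90.3 CPM in the libraries labelled knockout, against 123, 113, 109 and 125 CPM in wild type. Replicate 3 of the libraries labelled knockout lay inside the wild-type range, and the other 3 below it. The log2 fold change was -0.26 ± 0.07 (SE) with a limma adjusted p of 0.02. Ddx39a has a close copy, Ddx39b, and shares 17.4% of its exonic bases with Adgre5 on the opposite strand, which stood at 5.21 ± 0.813 CPM in the libraries labelled knockout and 5.86 ± 0.254 CPM in wild type, so its value is uncertain.

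Ddx4 had 521, 502, 476 and 503 CPM in the libraries labelled knockout, against 514, 511, 572 and 454 CPM in wild type, and all values of the libraries labelled knockout lay within the wild-type range. Ddx25, a helicase of spermatids, stood at 452 ± 19.8 CPM in the libraries labelled knockout and 459.8 ± 15.3 CPM in wild type. Dazl, which controls translation of germ cell messages, stood at 121 ± 13.0 CPM in the libraries labelled knockout and 126 ± 10.7 CPM in wild type, and Kif17, a kinesin reported at the chromatoid body, at 458 ± 22.5 CPM in the libraries labelled knockout and 479.7 ± 13.7 CPM in wild type (SD, n = 4 each). None of these was called.

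Of the 3 genes of DNA methylation and silencing, Morc1 rose and Dnmt3l fell. Morc1 (chromosome 16, 48431237 to 48630900 in GRCm38), an ATPase needed for transposon silencing in male germ cells, had 9.31, 7.01, 6.13 and 7.07 CPM in the libraries labelled knockout, against 5.04, 5.34, 4.80 and 6.11 CPM in wild type. The groups did not overlap, but replicate 3 of the libraries labelled knockout was only just above replicate 4 of wild type. The log2 fold change was 0.43 ± 0.12 (SE) with a limma adjusted p of 0.029, from 159 to 319 reads per library. Dnmt3l, the catalytically inactive partner of the de novo DNA methyltransferases (chromosome 10, 78041947 to 78063622 in GRCm38), had 8.35, 8.84, 6.36 and 8.44 CPM in the libraries labelled knockout, against 11.7, 10.2, 10.7 and 9.01 CPM in wild type. All libraries labelled knockout were below all of wild type, and the log2 fold change was -0.36 ± 0.11 (SE) with a limma adjusted p of 0.038. Dnmt3a, an active methyltransferase, stood at 22.9 ± 1.17 CPM in the libraries labelled knockout and 22.0 ± 1.30 CPM in wild type and was not called. Tdp2, which repairs blocked DNA ends and is the remaining gene of the list, stood at 24.3 ± 1.28 CPM in the libraries labelled knockout and 25.4 ± 0.818 CPM in wild type and was not called either.

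**Figure D4:**
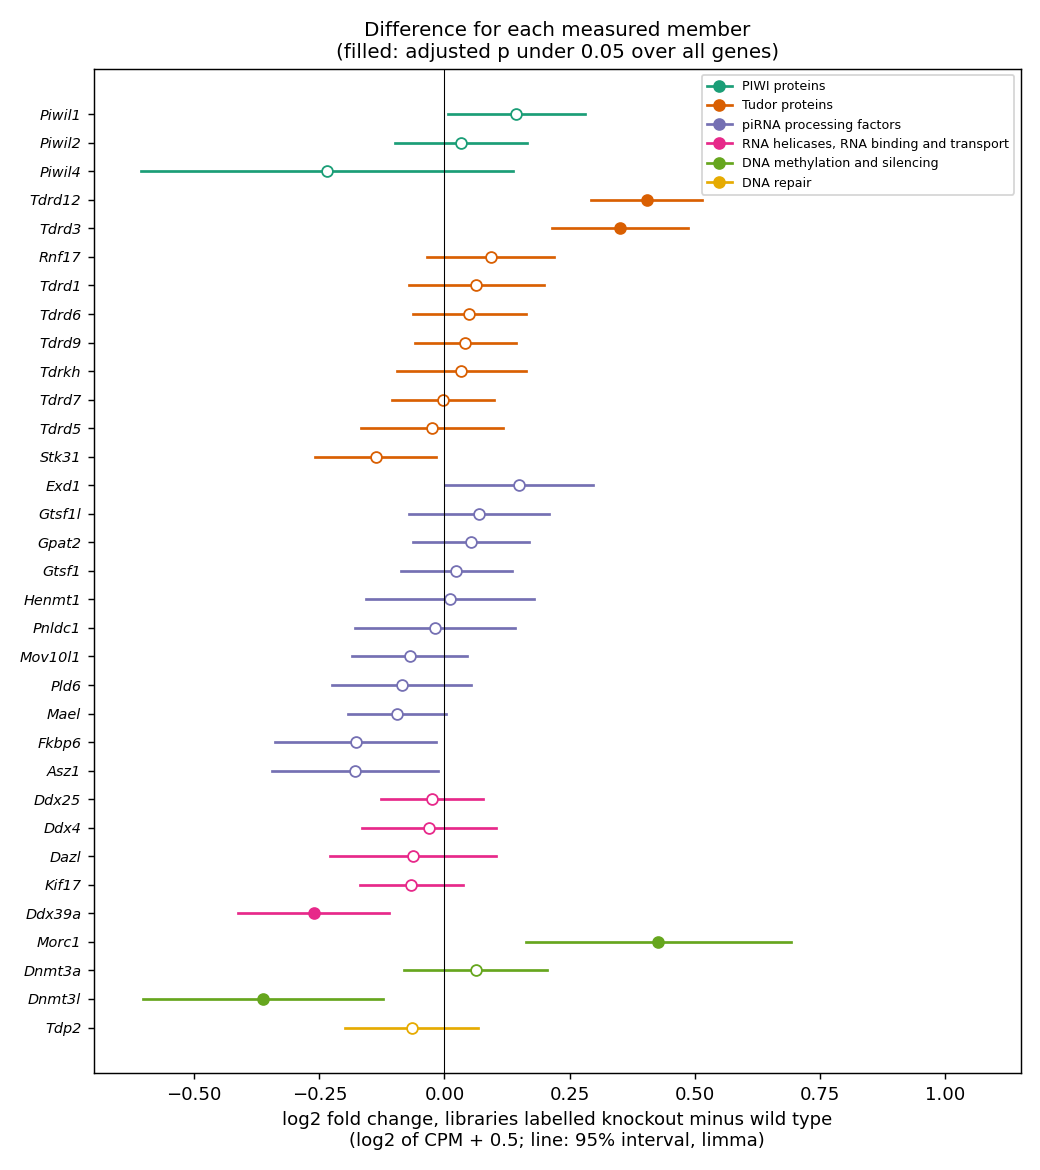
Log2 fold change of each member (libraries labelled knockout minus wild type, on log2 of CPM + 0.5) with its 95% interval from limma, coloured by role; filled points passed the threshold of 0.05 after adjustment over all genes. Of the 28 open points, 27 have intervals inside a 1.5-fold change in either direction, and that of Piwil4 is the exception.

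The calls differ in how often they passed when settings or libraries were changed. Leaving out 1 library also lowered the number of all genes called. Morc1, Dnmt3l and Ddx39a had limma adjusted p of 0.029, 0.038 and 0.02 in the main fit, nearer the threshold than Tdrd12 and Tdrd3. Tdrd12 and Tdrd3 passed in all 19 alternatives tried, with adjusted p of at most 0.0029 and 0.012. Among the 19, scaling by edgeR's TMM factors could not differ from the main fit, because the deposited values were already on that scale. Morc1 was lost when replicate 1 or 4 of the libraries labelled knockout or replicate 1, 2 or 3 of wild type was left out, with log2 fold changes of 0.32 to 0.50 over the alternatives and adjusted p of up to 0.082. Dnmt3l was lost in 7 of 19, among them the omission of replicate 3 or 4 of the libraries labelled knockout or of replicate 1, 2 or 3 of wild type (adjusted p up to 0.12). Ddx39a was lost in 4, among them the omission of replicate 4 of the libraries labelled knockout or of replicate 1 or 4 of wild type (adjusted p up to 0.076). A test of the whole reads gave 3 rises and 2 falls with either count model. By edgeR 8.61% of all genes were called higher and 8.16% lower (16.8% in all), and by DESeq2 9.31% higher and 8.75% lower (18.1% in all).

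Among the members not called, the 95% interval of 25 of 28 lay within a 1.25-fold change in either direction, and the exceptions were Piwil4, Asz1 and Fkbp6. Of the 28, 5 had an unadjusted p under 0.05, namely Piwil1, Stk31, Asz1, Fkbp6 and Exd1. The intervals bound the size of a difference in these libraries and do not show that the levels were equal.

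One library stood out across the list. Replicate 1 of the libraries labelled knockout was the highest of all 8 libraries for 13 of 33 members, among them Piwil1, Piwil2, Tdrd1, Tdrd12, Exd1, Henmt1 and Morc1, and the lowest for 1. Its mean over the members was 0.09 above the wild-type mean on the log2 scale, while the other 3 libraries labelled knockout lay between -0.04 and -0.0061 and the 4 wild-type libraries between -0.02 and 0.02. The other genes tied to the pathway, described below, also had their highest mean in this library, at 0.05. Their means were -0.04 to -0.01 in the other libraries labelled knockout and -0.02 to 0.02 in wild type. Over all genes tested the mean in this library was -0.01. How many of all genes were highest in it was not counted. In the same library the markers of elongating spermatids were lowest, at -0.15, against -0.04 to 0.10 in the other libraries labelled knockout and -0.04 to 0.04 in wild type. Its Leydig cell markers (-0.39) and macrophage markers (-0.28) were the lowest of the 8 libraries too. Their part in the members' values was not tested. In whole testis, fewer cells of a type and less RNA per cell cannot be told apart.

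Among markers of pachytene spermatocytes, Spo11, which makes meiotic DNA breaks, stood at 81.4 CPM in the libraries labelled knockout and 65.1 CPM in wild type, and Sycp1 of the synaptonemal complex at 143 CPM in the libraries labelled knockout and 177 CPM in wild type, and both passed the limma test. Of 14 markers of round spermatids no call was made with any of the 3 tools (limma, edgeR, DESeq2), while 1 reached an unadjusted p under 0.05. Of 14 of elongating spermatids 1 rose. Of 14 of spermatogonia, the cells before meiosis, 3 fell (Ccnd2, Uchl1 and Dmrt1) and 11 were not called. Among the latter, Zbtb16 and Id4 each had a log2 fold change of -0.01. Of the 14, 11 had a negative log2 fold change and 3 a positive one. The list means were -0.01, -0.15, -0.17 and -0.20 in the libraries labelled knockout, against -0.04 to 0.04 in wild type. By limma, Sertoli cell markers gave 3 falls of 12 (2 by edgeR) and peritubular myoid cell markers 4 falls of 8. Leydig cell markers gave 2 rises and 4 falls of 10, and endothelial markers 2 falls of 6. Macrophage markers gave no call of 8 by any of the 3 tools, with 1 at an unadjusted p under 0.05. Beside the counts of all these lists, limma called 8.62% of all genes tested higher and 8.32% lower. The lists are small, and their shares were not tested against these. The summed level of the spermatogonia markers was 183 to 199 CPM in the libraries labelled knockout and 199 to 211 CPM in wild type, and that of pachytene markers 8369 to 8986 CPM in the libraries labelled knockout and 8449 to 8656 CPM in wild type. For round spermatid markers it was 2523 to 2692 CPM in the libraries labelled knockout and 2475 to 2606 CPM in wild type, and for Sertoli cell markers 1456 to 1677 CPM in the libraries labelled knockout and 1661 to 1770 CPM in wild type. The Leydig cell markers summed to 784 to 1208 CPM in the libraries labelled knockout and 1161 to 1370 CPM in wild type, and the macrophage markers to 61.6 to 78.4 CPM in the libraries labelled knockout and 68.7 to 75.6 CPM in wild type. In these lists the ranges of the sums overlapped. A sum is led by its highest genes, for Sertoli cells Clu at 787 CPM in the libraries labelled knockout and 842 CPM in wild type. The list means of the Sertoli cell markers did not overlap, at -0.30 to -0.12 in the libraries labelled knockout and -0.05 to 0.05 in wild type. Of these markers 11 had a negative log2 fold change and 1 a positive one. The peritubular myoid cell markers summed to 358 to 374 CPM in the libraries labelled knockout and 408 to 485 CPM in wild type, and the endothelial markers to 23.9 to 29.8 CPM in the libraries labelled knockout and 30.6 to 34.8 CPM in wild type, with no overlap between the groups. Most of the myoid sum came from Actg2 and most of the endothelial sum from Vwf. The endothelial list means did overlap, at -0.41 to -0.01 in the libraries labelled knockout and -0.18 to 0.13 in wild type. Of the endothelial markers 4 had a negative log2 fold change and 2 a positive one. No marker was at 0 in any library.

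**Figure D5:**
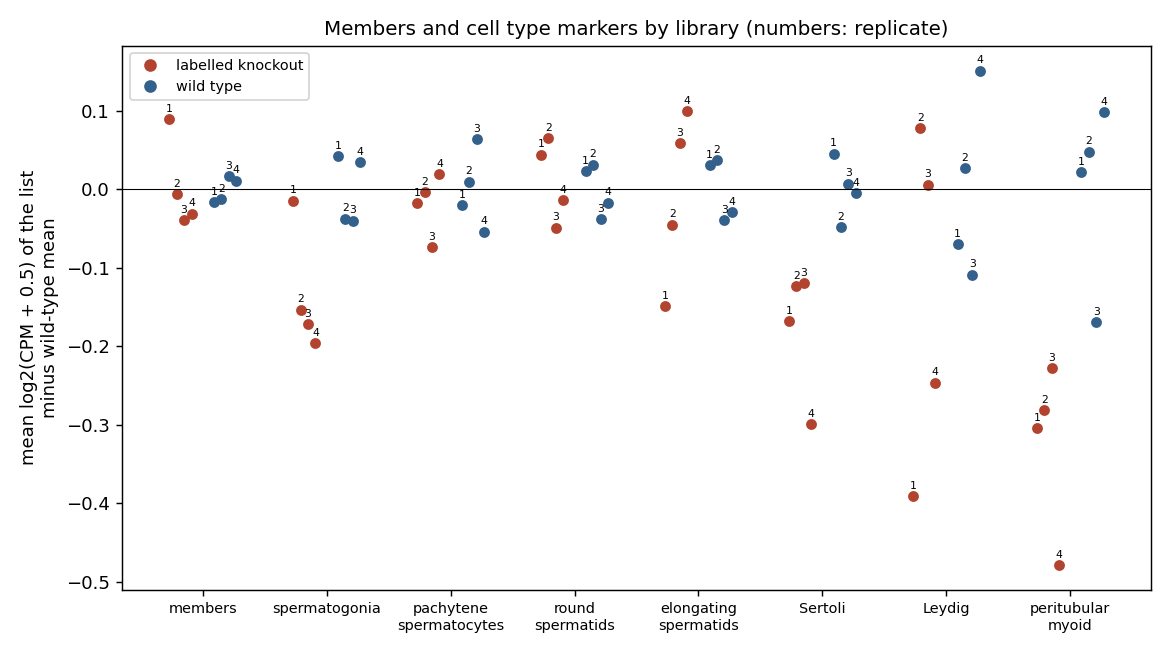
Mean log2(CPM + 0.5) of the members and of 7 lists of cell type markers in every library, minus the wild-type mean, with the libraries labelled knockout (red) left of wild type (blue) and the replicate number above each point. Replicate 1 of the libraries labelled knockout is highest for the members (0.09) and lowest for elongating spermatid (-0.15) and Leydig cell markers (-0.39).

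Other genes tied to the pathway, from a list of 44 of which 42 were measured, gave 3 rises and 1 fall. Their called share, 9.52%, was below the 16.9% of all genes tested. Lsm14a, an RNA-binding protein of processing bodies, rose 1.57-fold, with 54.2, 48.03, 49.1 and 51.2 CPM in the libraries labelled knockout, against 32.6, 32.1, 33.4 and 31.1 CPM in wild type (log2 fold change 0.64 ± 0.06 SE, limma adjusted p = 3.9e-06). All 4 libraries labelled knockout were far above all 4 of wild type, and its gene lies 1076 kb from Tdrd12 on chromosome 7. Ddx6, a helicase of the same bodies, had 99.8, 89.4, 87.4 and 101 CPM in the libraries labelled knockout, against 78.3, 75.6, 85.7 and 83.2 CPM in wild type (limma adjusted p = 0.023). Akap1, a mitochondrial anchor for protein kinase A with a Tudor domain, had 899, 844, 944 and 947 CPM in the libraries labelled knockout, against 779, 783, 772 and 806 CPM in wild type (limma adjusted p = 0.0086). For both, all 4 libraries labelled knockout lay above wild type.

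Kif5c, a kinesin heavy chain, fell to 29.4, 29.2, 31.1 and 31.9 CPM in the libraries labelled knockout, against 31.8, 36.5, 36.7 and 36.9 CPM in wild type, and 1 of them lay within the wild-type range (limma adjusted p = 0.032). Lsm14a and Akap1 passed in all 19 alternatives. Ddx6 was lost without a variance trend and without replicate 1 or 4 of the libraries labelled knockout or replicate 1 or 2 of wild type (adjusted p up to 0.079). Kif5c was lost without a variance trend and without replicate 1 or 2 of the libraries labelled knockout or replicate 2, 3 or 4 of wild type (adjusted p up to 0.093). Mybl1 (A-MYB), the transcription factor that drives pachytene piRNA precursors and many pathway genes, had 62.8, 61.5, 61.3 and 66.2 CPM in the libraries labelled knockout, against 59.4, 61.7, 68.1 and 60.6 CPM in wild type, and the groups overlapped. Prmt5, which methylates the arginines that Tudor proteins bind, had 33.2, 30.4, 32.6 and 27.9 CPM in the libraries labelled knockout, against 31.5, 27.5, 30.7 and 30.7 CPM in wild type. Boll, a relative of Dazl, had 130.3, 136, 125 and 137 CPM in the libraries labelled knockout, against 125, 125, 134 and 123 CPM in wild type. For both the groups overlapped. Neither these nor Mybl1 were called. The median log2 fold change of the 42 was -0.0065, beside -0.01 over all genes tested. By limma 9.52% of the 42 were called, beside 16.9% of all genes tested.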

How the data were processed

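RNA of adult testis was measured in 4 libraries labelled Kpna2 knockout and 4 labelled wild type, grouped by their titles. Columns named control and kpn were matched to titles by number, taking control to mean wild type. Per the submitters' processing notes the tools were Trimmomatic, Subread and featureCounts with build GRCm39 (mm39); of these, versions, annotation, strand setting and the handling of multi-mapping reads were not given in the sources used here. The authors deposited a scaled signal per gene, named CPM in the file, and no listed gene had fewer than 30 reads in all. Division by each library's smallest value above 0 returned whole reads, to a tolerance of 0.01, for 100% of values, and the scale equalled that of edgeR's TMM factors.

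The test was limma 3.58.1 in R 4.3.3 (mean-variance trend) on log2(CPM + 0.5), with no covariate. This scale understates changes of low genes. Symbols came from GENCODE M21 (24890 of 24988 identifiers). Positions and exonic lengths are those of GRCm38, another build than the authors used, and were not converted. Promoters are RefSeq's. Alternatives, run with edgeR 4.0.16 and DESeq2 1.42.0 where named, were other scalings, pseudocounts and filters, no variance trend, the replicate number as a block and each library left out. The fit was tested on simulated data with planted changes larger than those of the called members, so that test does not cover changes of their size. No pair of libraries agreed within sampling noise (chi-square per degree of freedom 4.63 to 11.7). Members and lists were chosen with earlier results of these data known. Values in every library are given for called members, those with an unadjusted p under 0.05, the PIWI genes, and Ddx4, Mael, Tdrd6 and Gtsf1, and, outside this rule and chosen after its values were seen, for Tdrd1; of the partners, the called ones and Mybl1, Prmt5 and Boll are named. The result of 1 marker gene is not reported here.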

Additional observations from a re-analysis of the deposited data

Results flagged for a closer look

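In 68 groups of 4 libraries, 2 held a value apart from the other 3 by Dixon's criterion, which chance alone meets in about 1 group in 20. Exd1 had 29.75 CPM in replicate 1 of the libraries labelled knockout, where the next highest of that group had 26.4 CPM. Gtsf1 had 261.0 CPM in replicate 1 of wild type, where the next lowest had 275.6 CPM.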

How the results depend on the processing

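Across the 19 alternatives, the 3 rises were kept or fell to 2 and the direction of each called member was the same. Of these alternatives, scaling by TMM factors only repeats the main fit. The falls numbered 1 with quantile normalization and 0 without a variance trend, where 2 partners were called. With 1 library left out the members gave 2 to 3 rises and 0 to 3 falls, the partners 2 to 4 calls and Kpna2 log2 fold changes of 0.38 to 0.55, and all genes called numbered 2791 to 3571. The replicate number as a block gave the same 3 rises and 2 falls, 5 partners and 3446 genes, against 3731 without it. Same-numbered libraries did not deviate together (correlations -0.03 to 0.04, against -0.06 to 0.07 for other pairs across the groups). The labels name no pairing, and correlations from so few libraries cannot exclude one. DESeq2 called 5 partners, adding Spocd1 as lower. Piwil4 was not tested with a filter at 2 CPM. Depth limits Piwil4 most, with 14 reads in its lowest library.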
